A study of Rattus norvegicus with 14 samples.

Results

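Macrophages are phagocytes that enter or reside in a tissue, take up particles and dead cells, and degrade them in lysosomes. The 39 genes described here mark these cells or serve this work: the lineage factor PU.1 and the CSF1 receptor axis, genes shared by all leukocytes, macrophage identity markers, signaling adaptors, Fc, lectin, toll-like and scavenger receptors, lysosomal proteases, and receptors for chemoattractants. They were named as a list, and 35 of the 39 genes had a probe set annotated to that gene alone, out of 14217 such genes on the array. Spi1, Trem1, Msr1 and Marco had none and were not analysed here. Where a gene had several probe sets (6 genes), the brightest on average, by mean log2 signal over the 14 arrays, stands for it.

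The 14 samples were taken from male Wistar rats. Each of the 11 tumors was a malignant peritoneal mesothelioma that followed a single intraperitoneal injection of multiwalled carbon nanotubes or of amosite asbestos, given in artificial lung medium. There were 3 amosite tumors, and the nanotube materials had induced 3 (MWCNT D), 3 (MWCNT C) and 2 (MWCNT B) of the others. The labels give 5 of them as sarcomatoid (amosite replicate 3, MWCNT B replicate 2, MWCNT C replicates 1 and 2, MWCNT D replicate 2), 3 as biphasic (amosite replicate 2, MWCNT C replicate 3, MWCNT D replicate 3) and 3 as epithelioid (amosite replicate 1, MWCNT B replicate 1, MWCNT D replicate 1). The 3 controls were tumor-free peritoneal tissues, called sham-treated in the sample labels and untreated in the study's methods. Samples of a group are labelled biological replicates, but no source used here ties each to a separate rat or gives its age at collection, so p-values measure the spread between these samples.

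Values are log2(signal + 1) of the authors' PLIER signals, called log2 signal below. Probe sets differ in how well they bind, so levels were compared between arrays and not between genes. Calls were made in limma, with p-values adjusted over all 31042 probe sets: a gene had to differ more than 2-fold and have an adjusted p under 0.05.

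Some arrays stood apart before any comparison was made. The controls held skeletal muscle: the mean of 14 muscle genes was 4.89 to 5.42 in the tumors and 14.74 to 14.81 in the controls, so each comparison with the controls is also one between tissues of different make-up, and tumor and tissue make-up cannot be told apart. MWCNT D replicate 2, labelled sarcomatoid, had a T cell list mean of 11.13, against 5.70 to 6.98 in the 10 other tumors, and a B and plasma cell list mean of 12.36, against 3.78 to 5.49. Its mesothelial list mean was the lowest of the tumors (7.62, against 8.89 to 11.92) but lay above the controls (4.28 to 6.28). The next lowest tumors, MWCNT B replicate 2 (8.89) and amosite replicate 3 (8.91), are labelled sarcomatoid too. Whether the label of MWCNT D replicate 2 holds was not tested. A list of pancreatic enzyme genes averaged 15.48 in amosite replicate 1 and 14.73 in that same MWCNT D tumor. The remaining 9 tumors had 5.24 to 5.82, and the controls 4.03 to 4.51. The counts of members called were therefore repeated without these arrays. So was the count at an unadjusted p below 0.05 between MWCNT and amosite tumors. The other counts were not. In whole tissue, fewer macrophages and less of a transcript per macrophage cannot be told apart.

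The macrophage and phagocyte genes were higher in the tumors than in the control peritoneal tissues. Of the 35 genes, 30 were called higher and 0 lower, where 24.5% of all probe sets were called higher, and the median log2 change was 2.81, against 0.34 over all probe sets. Csf1, Cd163, Ctsd, Ccr1 and Ccr2 were not called. In 27 of the 35 genes the lowest tumor lay above the highest control, as did 28.1% of all probe sets. The count of genes called higher was 30 without MWCNT D replicate 2, 30 without amosite replicate 1 and 30 without both. Under the scaling that centred each array on its median, the median change of all probe sets moved to -0.10 and the share of all calls that were higher moved to 46.6%, and quantile normalization gave a share of 52.4%, against 70.2% with the signals as deposited. The genes called higher then numbered 29 of 35 with centring and 30 with quantile normalization.

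**Figure D1:**
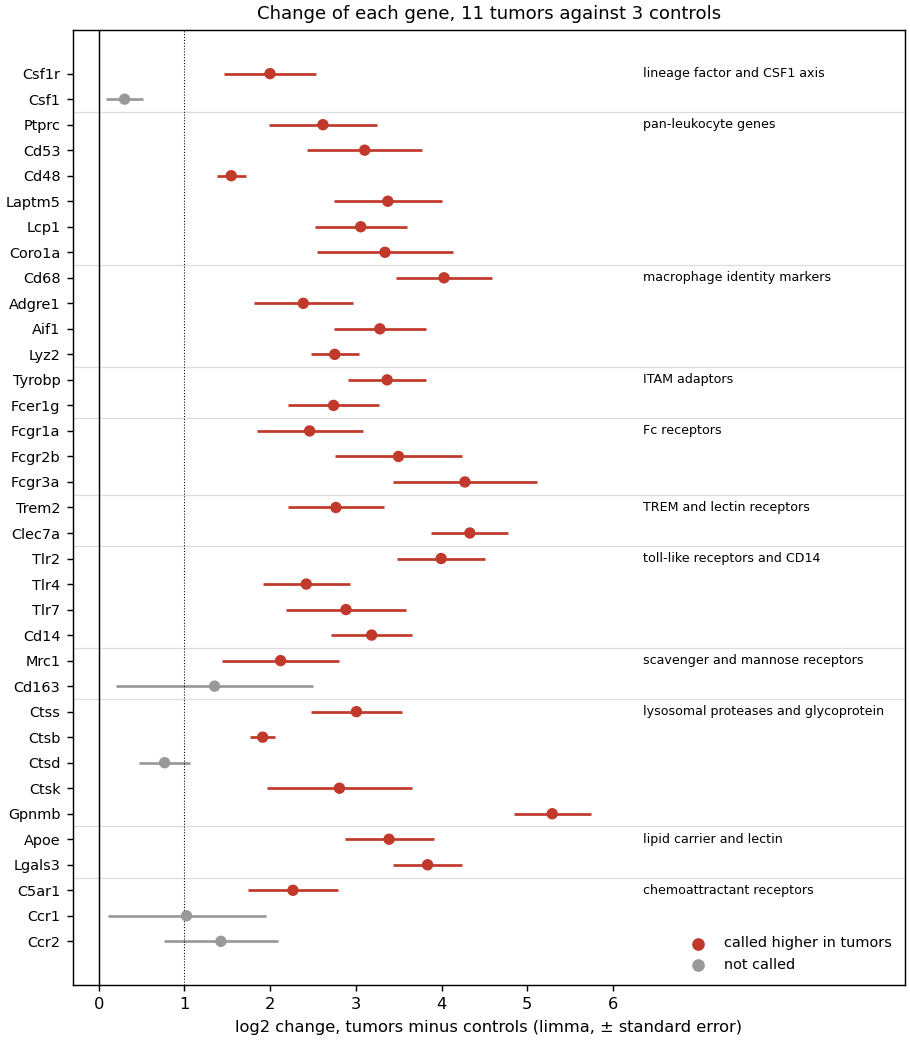
The log2 change of each of the 35 genes between 11 tumors and 3 controls (x axis; points with limma standard errors), grouped by role from top to bottom, with the 30 called genes in red and the 5 others in grey. The dotted line marks a log2 change of 1. Gpnmb has the largest change (5.29) and Csf1 the smallest (0.30).

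Among the genes that define the lineage, the receptor rose and its ligand did not pass the test. Csf1r encodes the receptor for CSF1 and IL-34, on which macrophages depend for survival. Its log2 signal was 9.22 at the lowest, 11.23 at the median and 12.43 at the highest in the tumors, against 8.95, 9.64 and 8.93 in the controls. Amosite replicate 1 was the only tumor within the range of the controls. The log2 change was 2.00 with a standard error (SE) of 0.54 (adjusted p = 0.0062). Csf1, the ligand, had a log2 signal of 8.20 to 9.38 in the tumors and 8.54 to 8.69 in the controls (log2 change 0.30, SE 0.22, adjusted p = 0.254), a difference that turned to -0.15 with each array centred on its median and to -0.015 after quantile normalization. This call rests on the choice of probe set. The other 3 probe sets of Csf1, with a lower mean over all arrays, were each called higher in the tumors, by 1.85 (SE 0.22), 1.97 (SE 0.36) and 2.46 (SE 0.31) on the log2 scale, with no overlap between tumors and controls.

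All 6 pan-leukocyte genes were called higher, with a median log2 change of 3.08. They are Ptprc (the phosphatase CD45), Cd53 (a tetraspanin), Cd48 (a ligand of the SLAM family), Laptm5 (a lysosomal membrane protein of blood cells), and the actin-binding proteins Lcp1 and Coro1a. Ptprc had a log2 signal of 8.73 to 12.82 in the tumors with a median of 10.55, against 7.31, 8.62 and 7.83 in the controls (log2 change 2.61, SE 0.63, adjusted p = 0.00296). MWCNT D replicate 2 was the highest tumor for Ptprc, Cd53, Laptm5, Lcp1 and Coro1a. For Coro1a it reached 13.08, against 7.94 to 10.41 in the other tumors and 5.38, 7.10 and 6.41 in the controls. Without that array Coro1a was still called higher (log2 change 2.99, adjusted p = 0.000205), as was Ptprc (2.39, adjusted p = 0.00113). Since these 6 genes are also those of lymphocytes, the T and B cell values of that array stand beside them, and their part in the result was not tested. Cd48 varied least, at 11.83 to 12.61 in the tumors and 10.48 to 11.09 in the controls.

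The 4 macrophage identity markers were called higher as well. Cd68, a glycoprotein of macrophage lysosomes, had a log2 signal of 9.01 at the lowest, 11.14 at the median and 11.90 at the highest in the tumors, against 6.01, 7.89 and 7.07 in the controls. The groups did not overlap, and Cd68 rose 16.3-fold (log2 change 4.03, SE 0.56, adjusted p = 3.47e-05). Aif1, the calcium-binding protein IBA1, changed by 3.28 (SE 0.54) and Lyz2, which encodes lysozyme, by 2.75 (SE 0.28). Adgre1 encodes an adhesion receptor widely used as a marker of rodent macrophages. Its log2 signal was 7.66 to 11.22 in the tumors and 7.01 to 7.93 in the controls (log2 change 2.39, SE 0.58, adjusted p = 0.00304). MWCNT C replicate 3, with 7.66, was the only tumor within the control range, and amosite replicate 1 had the next value, 8.75.

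Adaptors with an ITAM motif pass the signal of Fc, TREM and lectin receptors to SYK-type kinases. Both measured adaptors rose: Tyrobp (DAP12) by 3.36 (SE 0.46, adjusted p = 2.78e-05) and Fcer1g (the common gamma chain) by 2.74 (SE 0.53, adjusted p = 0.000549). Tyrobp was 9.58 to 11.97 in the tumors, against 7.36, 8.63 and 7.48 in the controls. Receptors that pair with them and other Fc receptors rose too. Fcgr3a, an activating IgG receptor, had a log2 signal of 7.28 at the lowest, 9.87 at the median and 12.21 at the highest in the tumors, against 4.87, 5.67 and 5.60 in the controls (log2 change 4.27, SE 0.84, adjusted p = 0.00063). MWCNT C replicates 2 and 3 were the lowest tumors, with 7.28 and 7.40, and MWCNT B replicate 1 was the highest. Fcgr2b, the inhibitory IgG receptor, which carries a signaling motif of its own, changed by 3.50 (SE 0.74) with its highest value in MWCNT C replicate 1 (12.40). Fcgr1a, the high-affinity IgG receptor, changed by 2.46 (SE 0.62).

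Clec7a encodes dectin-1, a lectin receptor for beta-glucans. Its log2 signal was 8.11 to 10.21 in the tumors with a median of 9.31, against 4.28, 6.16 and 4.66 in the controls, and it rose 20.1-fold (log2 change 4.33, SE 0.45, adjusted p = 2.39e-06). Trem2, a lipid-sensing receptor that pairs with Tyrobp, was 5.16 to 8.37 in the tumors, against 4.90, 3.71 and 4.87 in the controls. The groups did not overlap, although MWCNT D replicate 2, with 5.16, lay only just above the highest control while the other 10 tumors had 6.37 or more. Trem2 changed by 2.77 (SE 0.56, adjusted p = 0.000872) in all arrays and by 2.98 without MWCNT D replicate 2.

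Toll-like receptors and Cd14 sense microbial products and debris, and all 4 were called higher. Tlr2, which recognizes bacterial lipoproteins, was 6.95 to 9.46 in the tumors and 3.67 to 5.19 in the controls (log2 change 3.99, SE 0.51). Cd14, the co-receptor for lipopolysaccharide, changed by 3.18 (SE 0.47), Tlr7, a receptor for single-stranded RNA, by 2.88 (SE 0.70) and Tlr4, the lipopolysaccharide receptor, by 2.42 (SE 0.51). No tumor overlapped the controls in any of these 4 genes.

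Among the scavenger receptors the picture was mixed. Mrc1, the mannose receptor, was 9.01 to 12.67 in the tumors, against 8.54, 9.47 and 8.76 in the controls (log2 change 2.12, SE 0.69, adjusted p = 0.0171). MWCNT C replicate 3 and amosite replicate 1 lay within the control range, and the call was lost with each array centred on its median (adjusted p = 0.062), without control replicate 1 and without control replicate 3, where the highest adjusted p was 0.0758. Cd163, which takes up hemoglobin bound to haptoglobin, was not called. Its log2 signal was 4.33 at the lowest, 9.59 at the median and 11.40 at the highest in the tumors, against 7.02, 7.94 and 7.78 in the controls (log2 change 1.35, SE 1.15, adjusted p = 0.336). The lowest value belonged to MWCNT C replicate 3, and 8 of the 11 tumors lay above the controls.

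Gpnmb changed most of the 35 genes. It encodes a transmembrane glycoprotein of phagocytes, melanocytes and osteoclasts. The log2 signal was 11.58 at the lowest, 12.45 at the median and 13.61 at the highest in the tumors, against 6.57, 8.45 and 6.74 in the controls, a 39.1-fold rise (log2 change 5.29, SE 0.45, adjusted p = 3.47e-07). The lysosomal protease Ctss, which trims the invariant chain of antigen-presenting cells, was 10.30 to 13.18 in the tumors and 8.63 to 9.45 in the controls (log2 change 3.01, SE 0.53). Ctsb was nearly even among tumors, at 13.06 to 13.66, and the controls had 11.18 to 11.69 (log2 change 1.91, SE 0.14, adjusted p = 1.1e-07). Ctsd, an aspartic protease, missed the fold threshold: its change was 0.77 (SE 0.29, adjusted p = 0.0386), with all 11 tumors above the controls. Ctsk is described further below.

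Apoe, which carries lipid, was 10.26 to 13.38 in the tumors and 8.60 to 9.75 in the controls (log2 change 3.39, SE 0.52). Lgals3, a galactose-binding lectin that macrophages secrete and other cells make as well, was 11.69 to 13.71 in the tumors and 8.34 to 9.98 in the controls (log2 change 3.84, SE 0.40, adjusted p = 2.73e-06). Neither gene overlapped between tumors and controls.

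Of the chemoattractant receptors, 1 of 3 was called. C5ar1, the receptor for complement fragment C5a, rose by 2.26 (SE 0.53, adjusted p = 0.00226) and was 7.91 to 10.63 in the tumors, against 6.96, 7.79 and 7.07 in the controls. Ccr2, the monocyte receptor for Ccl2, was dim, at 3.29 to 6.48 in the tumors and 2.00, 5.03 and 4.35 in the controls (log2 change 1.42, SE 0.66, adjusted p = 0.0823). It was called without MWCNT C replicate 3 and without control replicate 2. With log2 signals below 5 raised to 5, Ccr2 changed by 0.50 (adjusted p = 0.207). Its lowest change with 1 array left out was 0.53. Ccr1, a receptor for Ccl3 and other CC chemokines, was 5.51 to 10.34 in the tumors, against 6.97, 7.62 and 7.20 in the controls (log2 change 1.02, SE 0.92, adjusted p = 0.364), and 5 of the 11 tumors lay above the controls.

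The 3 controls differed among themselves. Control replicate 2 was the highest control for 33 of the 35 genes and control replicate 1 the lowest for 31, so that the spread of the controls was mostly one shift shared by the genes.

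PU.1, the product of Spi1, binds purine-rich sites with the core GAGGAA, and many macrophage genes carry such a core close to their start. Since Spi1 itself had no probe set, its core was searched in the promoters of the members, on both strands, in the 250 bases before the gene start (RefSeq sequences, assembly GRCr8). A promoter entry matched 25 of the 35 genes. The core was present in 17 of these 25 (68%), among them Csf1r, Ptprc, Cd53, Laptm5, Cd68, Adgre1, Lyz2, Fcgr3a, Trem2, Ctss and Gpnmb, and in 23.3% of all 33469 promoters of that length. The longer form GAGGAAGT, which contains the core, occurred in Cd53, Fcgr3a and Ctss and in 2.04% of all promoters. The AP-1 site TGACTCA occurred in 2 of the 25 (Cd68 and Gpnmb) and in 4.05% of all promoters, and the E-box CACGTG in 1 (Ctsd) and in 5.59%. These are matches of letters and say nothing of binding in these tissues.

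The last 120 bases before the start are shown for the 3 genes with the longer form and for Cd68, each on the strand of its gene, with the core or its reverse complement in capitals. They lie at chr2:185775276-185775395 on the plus strand (Ctss), chr2:197087897-197088016 on the minus strand (Cd53), chr13:85782516-85782635 on the plus strand (Fcgr3a) and chr10:54882442-54882561 on the minus strand (Cd68).
Ctss: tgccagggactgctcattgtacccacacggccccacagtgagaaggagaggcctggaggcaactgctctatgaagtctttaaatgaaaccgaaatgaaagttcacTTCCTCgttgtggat
Cd53: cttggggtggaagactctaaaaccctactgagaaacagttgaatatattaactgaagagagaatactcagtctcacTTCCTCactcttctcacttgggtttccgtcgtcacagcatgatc
Fcgr3a: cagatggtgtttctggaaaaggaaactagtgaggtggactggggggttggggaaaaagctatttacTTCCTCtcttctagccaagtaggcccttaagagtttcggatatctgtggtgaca
Cd68: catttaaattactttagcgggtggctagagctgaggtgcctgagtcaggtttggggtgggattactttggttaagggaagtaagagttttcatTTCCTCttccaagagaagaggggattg
In each of the 4 the core reads on the opposite strand of the gene. It begins 15 bases before the start in Ctss, 44 in Cd53, 54 in Fcgr3a and 27 in Cd68.

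The comparison by inducer asked whether tumors of each material carried these genes. Of the 35 genes, 29 were called higher in amosite tumors than in controls, where 22.3% of all probe sets were. For MWCNT D the count was 28 (22.4%), for MWCNT C it was 23 (21.9%) and for MWCNT B it was 28 (20.8%), with 0 called lower in any of the 4 groups. The median log2 change of the genes was 3.08 for MWCNT B, 2.44 for MWCNT C, 3.01 for MWCNT D and 2.89 for amosite. These comparisons share the 3 controls. Csf1r, Ptprc, Adgre1, Fcgr1a, Tlr7 and C5ar1 were called in each of the other 3 groups and not in MWCNT C. Csf1r, for example, changed by 1.43 in MWCNT C tumors, by 2.10 in amosite tumors and by 2.29 in MWCNT B tumors. MWCNT C was not tested by itself against another inducer. Without control replicate 1 its count was 15, and without amosite replicate 1, through the shared estimate of spread, it was 29. For MWCNT B, with 2 tumors, it was 16 without replicate 1 and 17 without replicate 2. Without MWCNT D replicate 2 the count for MWCNT D was 26.

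By tumor type, 31 genes were called higher in sarcomatoid tumors (23.3% of all probe sets), 30 in biphasic tumors (24.0%) and 26 in epithelioid tumors (24.6%), and again 0 were called lower. Without both arrays with pancreatic transcripts the counts were 32, 30 and 30 in the same order, and centring the arrays gave 29, 24 and 19. Ccr1 was called in sarcomatoid tumors (log2 change 2.16, SE 0.74, adjusted p = 0.0277). Its changes against the controls were 0.87 (SE 0.83) in biphasic and -0.73 (SE 0.83) in epithelioid tumors.

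Within the tumors, no comparison called a member, in limma with Benjamini-Hochberg adjustment. Between sarcomatoid and epithelioid tumors 0 of 35 were called (0.760% of all probe sets in either direction), with 4 at an unadjusted p below 0.05. Ccr1 differed most. Its log2 signal was 10.03 in the MWCNT B, 10.34 and 9.57 in the MWCNT C, 7.58 in the MWCNT D and 9.61 in the amosite sarcomatoid tumor, against 5.51 in the amosite, 6.91 in the MWCNT B and 7.19 in the MWCNT D epithelioid tumor. All 5 sarcomatoid tumors lay above all 3 epithelioid ones (difference 2.89, SE 0.74, adjusted p = 0.105). Without MWCNT D replicate 2 the difference was 3.35 and passed (adjusted p = 0.035), as it did without amosite replicate 2 (adjusted p = 0.042). It did not pass without both arrays that carry pancreatic transcripts (2.84, adjusted p = 0.138) or with the inducer as a covariate. Cd163 differed by 2.44 (SE 1.19, adjusted p = 0.406), and passed only without MWCNT C replicate 3 (adjusted p = 0.0409). Mrc1, Cd68 and Tlr7 were the others with a low unadjusted p, each higher in sarcomatoid tumors (differences of 1.83, 1.45 and 1.70, with adjusted p of 0.238, 0.261 and 0.31).

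Sarcomatoid and biphasic tumors did not differ in any member past the threshold (0.248% of all probe sets called). Tlr4 had the lowest adjusted p: the sarcomatoid mean was 7.99, the biphasic mean 9.51 (difference -1.52, SE 0.43, adjusted p = 0.231). It went against the direction of most of the list, since 28 of 35 genes had a positive difference. Biphasic minus epithelioid differences ran between -0.94 and 1.60 (0% of all probe sets called, lowest adjusted p 0.954).

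Differences between MWCNT tumors and amosite tumors ran between -0.74 and 0.61 with a median of -0.06, 0 of 35 were called (0% of all probe sets) and 0 reached an unadjusted p of 0.05. Without amosite replicate 1, 2 genes reached that p, and without both arrays with pancreatic transcripts 6 did, again with 0 called. Csf1r had the lowest adjusted p in both fits (-1.16, adjusted p = 0.85, and -1.29, adjusted p = 0.474). Between MWCNT B and C tumors and MWCNT D tumors, differences ran between -1.48 for Coro1a and 1.52 for Ccr1, and 0 were called (0.0129% of all probe sets, lowest adjusted p 0.581 for Apoe). MWCNT D replicate 2 is the highest array for Coro1a. With 5 tumors against 3 and standard errors of 0.83 for Coro1a and 1.03 for Ccr1, differences of this size were not detectable here.

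The tumors were ranked by the module mean, the mean log2 signal of the 35 genes. It averaged 10.41 with an SD of 0.68 over the 11 tumors, and 7.64 with an SD of 0.54 over the 3 controls, and the lowest tumor lay 0.98 above the highest control. From highest to lowest the tumors were amosite replicate 2 (11.15, biphasic), MWCNT C replicate 1 (11.10, sarcomatoid), amosite replicate 3 (10.99, sarcomatoid), MWCNT D replicate 2 (10.73, sarcomatoid), MWCNT D replicate 3 (10.61, biphasic), MWCNT B replicate 2 (10.55, sarcomatoid), MWCNT B replicate 1 (10.51, epithelioid), MWCNT D replicate 1 (10.40, epithelioid), MWCNT C replicate 2 (10.01, sarcomatoid), MWCNT C replicate 3 (9.21, biphasic) and amosite replicate 1 (9.18, epithelioid). Each of amosite and MWCNT C held tumors at both ends of this order, and the biphasic tumors likewise. The range was 1.97 over the 11 tumors and 1.08 over the 3 controls, which are not alike in number, and a range grows with the number of arrays.

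**Figure D2:**
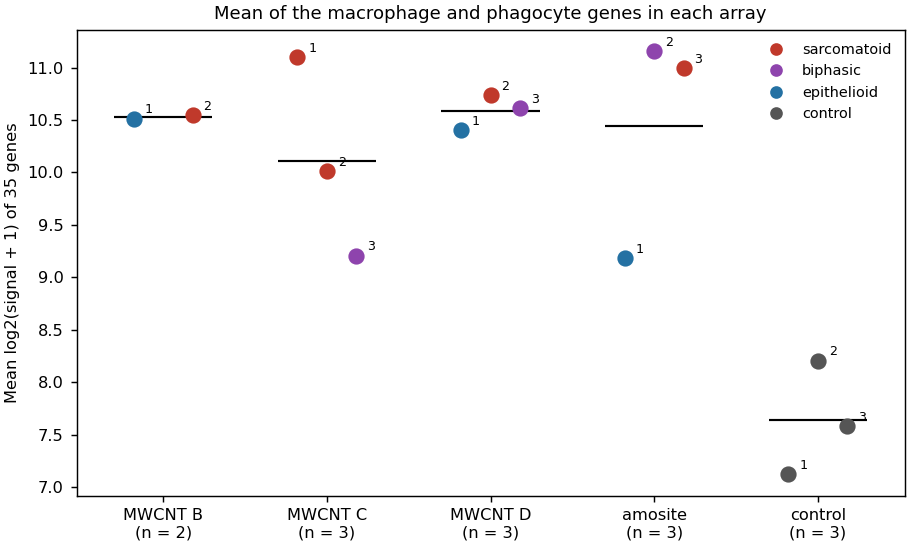
The mean log2 signal of the 35 genes (y axis) in each array, by inducer with the controls at the right; colors give the tumor type, numbers the replicate and black lines the group mean. All 11 tumors (9.18 to 11.15) lie above the 3 controls (7.12 to 8.21), and amosite spans the whole range of the tumors.

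Group means of the module overlapped within their spread. They were 10.53 ± 0.02 for MWCNT B (n = 2), 10.11 ± 0.95 for MWCNT C, 10.58 ± 0.17 for MWCNT D and 10.44 ± 1.10 for amosite (SD, n = 3 each). By tumor type they were 10.68 ± 0.43 for sarcomatoid (SD, n = 5), 10.32 ± 1.01 for biphasic and 10.03 ± 0.74 for epithelioid tumors (n = 3 each). Without MWCNT D replicate 2 the sarcomatoid mean was 10.66 ± 0.49 and the MWCNT D mean 10.51 ± 0.15. No test was made on this score, since the genes were chosen with earlier results known.

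Single arrays took most of the extremes. Amosite replicate 1 was the lowest tumor for 17 of the 35 genes and MWCNT C replicate 3 for 10. At the other end amosite replicate 2 was highest for 10 genes, MWCNT C replicate 1 for 8, and amosite replicate 3 and MWCNT D replicate 2 for 7 each. Amosite replicate 1 carries pancreatic transcripts (above), MWCNT C replicate 3 does not, and the part of such tissue in the low values was not tested.

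**Figure D3:**
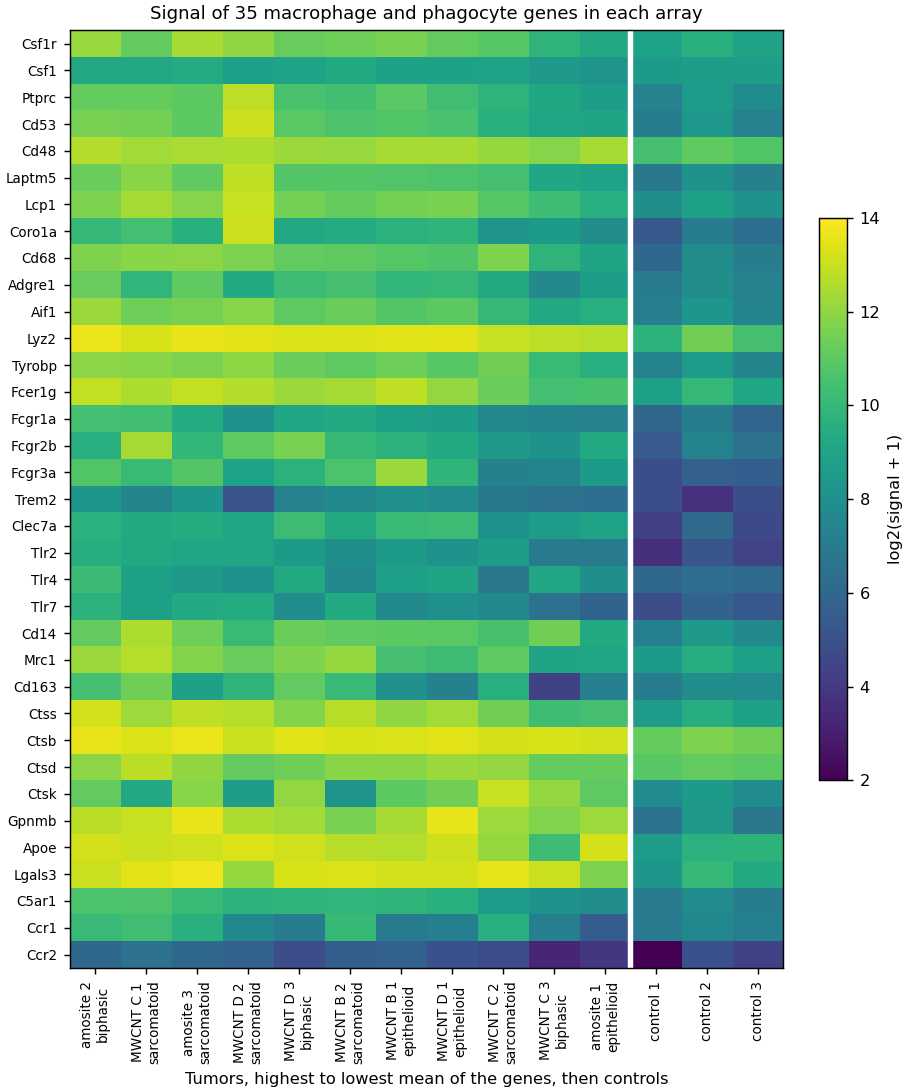
Log2 signal of the 35 genes (rows, grouped by role) in the 14 arrays (columns), with tumors ordered from the highest to the lowest mean of the genes and the 3 controls at the right. Colors compare arrays within a row, not rows with each other; Ptprc, Cd53, Laptm5, Lcp1 and Coro1a are brightest in MWCNT D replicate 2, and Cd163 is darkest in MWCNT C replicate 3 (4.33).

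The rank of MWCNT D replicate 2 depended on which members were averaged. Of the 35 genes, 23 remained when the 6 pan-leukocyte genes and 6 genes that many cell types make (Csf1, Ctsb, Ctsd, Ctsk, Lgals3 and Apoe) were left out. On these 23 genes the array had 10.05 and ranked 6, against 4 on all 35. On the 6 pan-leukocyte genes it had 12.89, against 11.61 in the next tumor, MWCNT C replicate 1. Amosite replicate 2 stayed first and MWCNT C replicate 1 second on the narrower list, and the lowest places were taken by amosite replicate 1 (8.53) and MWCNT C replicate 3 (8.52).

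**Figure D4:**
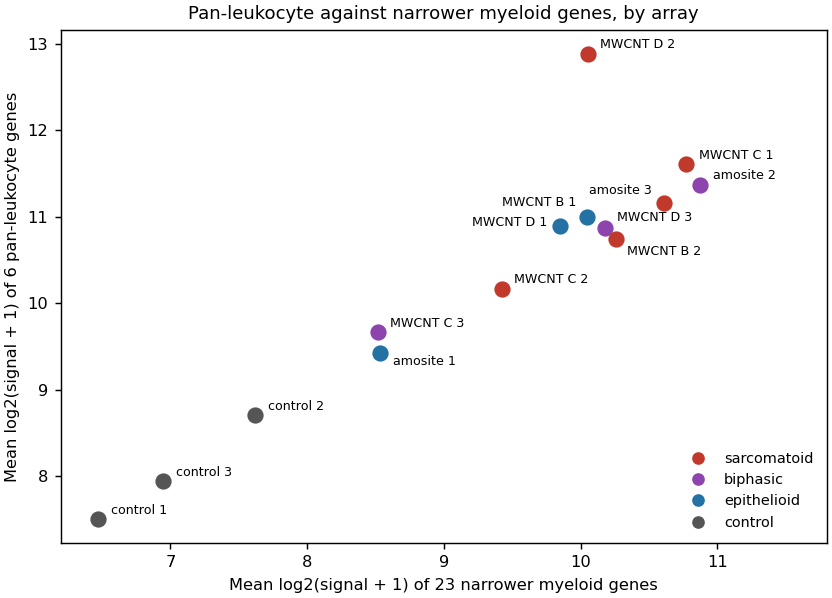
The mean log2 signal of 6 pan-leukocyte genes (y axis) against that of 23 narrower myeloid genes (x axis), each point being an array whose color gives the tumor type. MWCNT D replicate 2, at 12.89 and 10.05, has the widest gap between the lists (2.83, against 0.49 to 1.15 in the other 13 arrays).

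Many of the genes varied together across the tumors, in part through 2 of them. The Pearson correlation of each gene with the mean of the other 34, over the 11 tumors, was above 0.8 for 18 genes and above 0.5 for 28. Without the 2 tumors farthest from the median, MWCNT C replicate 3 and amosite replicate 1, it was above 0.8 for 4 (C5ar1, Aif1, Fcgr1a and Ccr2) and above 0.5 for 20. It is a description over 11 points, 1 for each array, which share normalization and tissue make-up, so no p is given. C5ar1 followed the others most closely (r = 0.97, Spearman coefficient 0.93), and without those 2 tumors r was 0.94. Fcer1g (0.95), Aif1 (0.94), Ccr2 (0.94), Ctss (0.92), Lyz2 (0.91), Tlr2 (0.91) and Tyrobp (0.91) came next. Without those 2 tumors most fell: Tyrobp had 0.65, Lyz2 0.69 and Ctss 0.71, while Aif1 had 0.85 and Ccr2 0.83.

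Genes at the lower end were Clec7a (0.47), Ctsb (0.47), Trem2 (0.46), Lgals3 (0.44), Tlr4 (0.30) and Ctsk (-0.41). Without the 2 farthest tumors Tlr4 had 0.64 and Lgals3 -0.12, so that their places rest on those arrays, while Ctsk had -0.46. Cd68, the marker often used to count macrophages, had 0.86, and 0.47 without the 2 farthest tumors.

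Ctsk encodes cathepsin K, the collagen-degrading protease of osteoclasts, which fibroblasts also make. It was called higher in the tumors (log2 change 2.81, SE 0.85, adjusted p = 0.0116) but in an order of its own. Its log2 signal was 12.99 in MWCNT C replicate 2, 12.06 in MWCNT C replicate 3, 12.04 in MWCNT D replicate 3, 11.87 in amosite replicate 3, and 10.97 to 11.42 in MWCNT B replicate 1, amosite replicates 1 and 2 and MWCNT D replicate 1. The remaining tumors had 9.24 (MWCNT C replicate 1), 8.69 (MWCNT D replicate 2) and 8.20 (MWCNT B replicate 2), against 7.83, 8.55 and 7.81 in the controls. MWCNT B replicate 2 was within the control range. All 3 low tumors were sarcomatoid, as was the highest.

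Of the 6 other osteoclast and giant cell genes measured, Acp5 and Mmp9 shared part of this order; they are the 2 with the largest change between tumors and controls. Acp5, tartrate-resistant acid phosphatase, was 12.43, 11.89, 10.95 and 11.43 in the 4 tumors with the highest Ctsk, and Mmp9, a gelatinase, was 12.30, 10.46, 10.91 and 9.91 in them, against 4.38 to 6.91 in the other 7. Acp5 was also high in MWCNT D replicate 2 (11.56), where Ctsk was low. Over the 11 tumors r was 0.50 for Ctsk with Acp5, 0.68 for Ctsk with Mmp9 and 0.89 for Acp5 with Mmp9, and 0.72, 0.73 and 0.80 without the 2 tumors whose Ctsk or Acp5 lay farthest from the median. Itgb3, an integrin chain of osteoclasts, had an r of 0.34 with Ctsk, and Calcr, the calcitonin receptor, was nearly even over the tumors (5.30 to 5.84). Tnfrsf11a was 7.43, 6.29, 6.93 and 7.14 in the 4 tumors with the highest Ctsk, and 6.05 to 7.43 over all tumors. Nfatc1 was 8.80, 8.83, 8.13 and 8.73 in those 4, and 7.70 to 10.29 over all tumors. The same 4 tumors were not set apart by Csf1r (r = -0.21 with Ctsk) or Cd68 (-0.15).

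**Figure D5:**
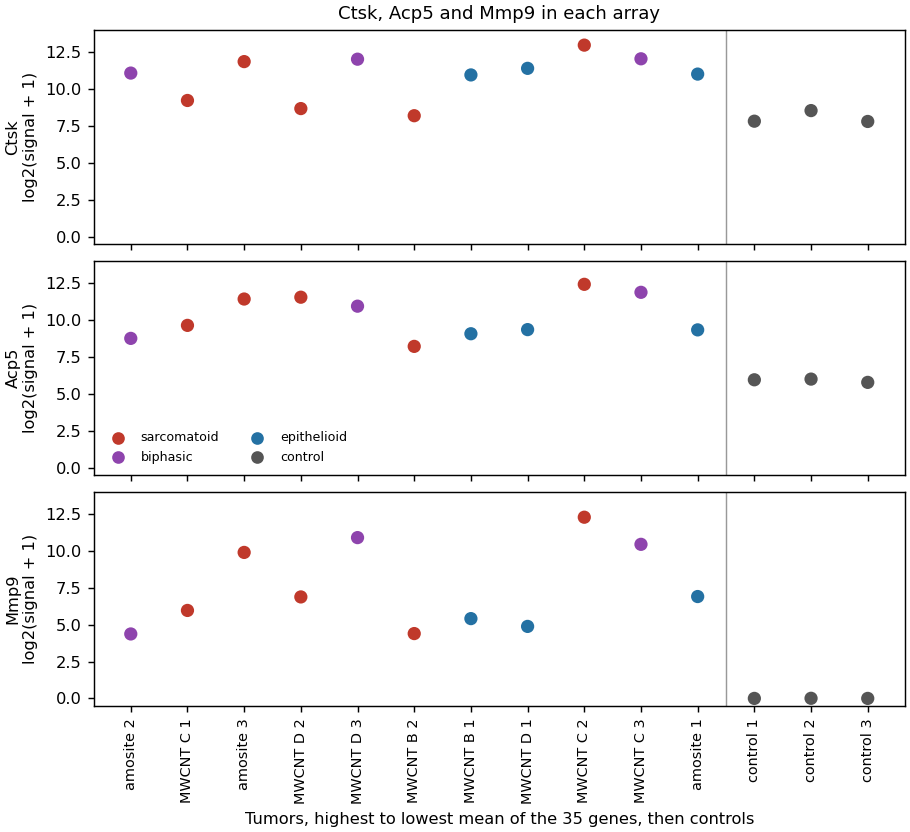
Log2 signal of Ctsk, Acp5 and Mmp9 (y axes) in each array, with tumors ordered from the highest to the lowest mean of the 35 genes and controls at the right; colors give the tumor type. Amosite replicate 3, MWCNT D replicate 3, MWCNT C replicate 2 and MWCNT C replicate 3 are high in all 3 genes, whatever their place in the order.

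Genes that were no members but followed the module most closely were sought among 7564 genes with a mean log2 signal of at least 8 in the tumors. The 10 with the highest r were Myo1f (0.96), Tm6sf1 (0.96), C1qa (0.96), Clec4a1 (0.96), C1qb (0.95), Vsir (0.95), C1qc (0.95), Igsf6 (0.95), Apobec1 (0.95) and Csf2ra (0.94). C1qa, C1qb and C1qc encode the 3 chains of complement C1q, which macrophages secrete, and Csf2ra a receptor chain for GM-CSF. Without the 2 farthest tumors r was 0.81 to 0.95 for these 10. Of these 10, 9 were called higher in the tumors, with log2 changes of 1.75 to 3.06. Tm6sf1 was the exception, with a tumor mean of 8.77 and a control mean of 8.64 (log2 change 0.13, SE 0.44, adjusted p = 0.819). The 5 lowest were Wdr6 (-0.91), Gsta4 (-0.91), Thyn1 (-0.90), Echdc1 (-0.90) and Caskin2 (-0.90), of which 0 were called. Without those tumors their r ran between -0.78 (Wdr6) and -0.55 (Gsta4).

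Other lists from the same pathways were counted in the same way, against 24.5% of all probe sets called higher. They share the arrays with the members, and a count near that share says nothing particular of a list. For C1q and complement receptors, 7 of 7 measured genes were called higher, with a median log2 change of 3.33. Among them were the integrin chain Itgax (4.23, SE 0.69) and the anaphylatoxin receptor C3ar1 (3.62, SE 0.72). Below the ITAM receptors, 9 of 9 signaling genes were called higher (median 2.71). Their list mean was highest in MWCNT D replicate 2 (9.87), the tumor with high T and B cell lists, against 6.47 to 8.38 in the other tumors. Vav1, a signaling protein of blood cells, changed by 4.81 (SE 0.65), with its highest value in MWCNT D replicate 2 (11.15). Card9, the adaptor of dectin-1, changed by 5.61 (SE 0.64), and by 1.55 with log2 signals below 5 raised to 5, since its controls were near 0. With that floor Plcg2, also among the 9, changed by 0.97 and did not pass (adjusted p = 0.26).

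Myeloid transcription factors moved less, with 4 of 9 called higher (median 0.89). Irf8, which directs monocyte and dendritic cell fate, was 8.16 to 12.72 in the tumors and 6.09 to 6.51 in the controls (log2 change 3.28, SE 0.69), again highest in MWCNT D replicate 2. Irf5 changed by 2.72 (SE 0.41). Cebpa, Cebpb, Maf, Mitf and Nr1h3 were not called.

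Of the CSF and chemokine list, 5 of 10 were called higher. Ccl2, the ligand of Ccr2, was 8.49 to 12.84 in the tumors and 6.31 to 7.48 in the controls (log2 change 3.63, SE 0.68, adjusted p = 0.000474), and the fractalkine receptor Cx3cr1 changed by 3.13 (SE 0.45). Il34, the other ligand of Csf1r, was not called (0.70, SE 0.64). Lysosomal enzymes and membrane proteins had 11 of 14 called higher (median 1.57), led by Ctsz (3.16, SE 0.29) and the progranulin gene Grn (2.68, SE 0.25).

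Further scavenger and efferocytosis receptors had 7 of 11 called higher (median 1.67). Olr1, the receptor for oxidized lipoprotein, changed by 6.27 (SE 0.89) and Tyro3 by 5.77 (SE 0.90), but at the floor of 5 Olr1 changed by 3.11 and Tyro3 by 1.71 without passing (adjusted p = 0.119). Osteoclast and giant cell genes had 4 of 6 called higher and 1, Nfatc1, lower. Acp5 changed by 4.33 (SE 0.79) and Mmp9 by 7.49 (SE 1.58). Controls were near 0 for Mmp9, which did not pass at the floor (2.61, adjusted p = 0.202).

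Genes of resident serosal macrophages were called higher in 4 of 8 cases, led by Gata6 (5.78, SE 0.60) and the coagulation factor gene F5 (2.37, SE 0.55). Cd5l, also among the 4, did not pass at the floor (0.71, adjusted p = 0.392). Gata6, a transcription factor of resident peritoneal macrophages that mesothelial cells also express, was highest in amosite replicate 1 (11.03), the tumor with the lowest module mean, and lowest in MWCNT D replicate 2 (7.17). Of the activation genes 6 of 12 were called higher. Spp1, osteopontin, which macrophages and tumor cells both secrete, changed by 7.54 (SE 1.30) and by 5.88 at the floor, and Il6 by 5.61 (SE 1.17), without passing at the floor (1.19, adjusted p = 0.33). The others called were Arg1 (4.15, SE 1.10), Hmox1 (3.74, SE 0.53), Il1b (3.20, SE 0.65) and Ccl4 (2.35, SE 0.83). Nos2 (0.32, SE 0.13), Tnf (0.42, SE 0.32), Ccl3, Il10, Retnla and Chi3l1 were not called.

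Markers of other leukocytes were set beside the module mean, again as a description over 11 tumors. Dendritic cell genes had 4 of 4 called higher (Flt3, Clec9a, Batf3 and Cd83, with a median log2 change of 2.76). Their list mean was 6.12 to 9.06 in the tumors and 3.89 to 5.06 in the controls. The value of 9.06 was that of MWCNT D replicate 2, and the other tumors had 7.85 or less. Clec9a, with a change of 4.49, did not pass at the floor of 5 (0.93, adjusted p = 0.211). Neutrophil genes had 3 of 5 called higher (S100a8, S100a9 and Csf3r), T cell genes 2 of 8, mast cell genes 1 of 6 and B and plasma cell genes 0 of 4. At the floor S100a8 (2.04, adjusted p = 0.201) and S100a9 (3.04, adjusted p = 0.0617) did not pass. The same held for the T cell gene Cd8a (1.02, adjusted p = 0.0688), and the mast cell gene Kit fell below the fold threshold (0.68). The part of these cells in the values of the members was not tested. The mean of the complement list correlated with it at 0.97, that of the lysosomal list at 0.91, that of the dendritic cell list at 0.58 (0.29 without the 2 farthest tumors), that of the T cell list at 0.41, that of the B and plasma cell list at 0.36, that of the mast cell list at 0.33 and that of the neutrophil list at 0.06. For T cells the Spearman coefficient was 0.86, so the order of the tumors was similar while MWCNT D replicate 2 lay far above the rest. The mesothelial list had -0.40, and 0.01 without the 2 farthest tumors, and the fibroblast list -0.05.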

How the data were processed

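Signals of 14 Affymetrix 3′ expression arrays for the rat, 1 for each tissue, were taken as deposited. Per the labels and methods, the authors used the Transcriptome Analysis Console, with PLIER, to make these intensity values; they are linear intensities of 31099 probe sets, with no detection calls. Removal of 57 Affymetrix control probe sets left 31042, and log2(signal + 1) was used. No other columns of values were present (0). Depth has no meaning for arrays, and the number of arrays limits the precision. The array median signal was 129 to 155 in the tumors and 97.2 to 105 in the controls.

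Symbols came from the platform annotation: 20826 probe sets had 1 symbol (20758 found in RefSeq by gene ID), 436 had several and 9780 had none listed here. Probe sets with several symbols named no gene.

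Groups followed the labels. All arrays entered limma 3.58.1 (R 4.3.3), in 5 fits (tumors and controls; inducers; tumor types; MWCNT and amosite; MWCNT B and C and MWCNT D) with 13 comparisons, and all p-values are limma's, adjusted over all probe sets by Benjamini-Hochberg. The procedure was tested on simulated data. Tables and plots used pandas 2.3.3 and matplotlib 3.10.9 in Python 3.11.15. Promoters came from RefSeq (GRCr8).

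The members, related lists and markers were chosen with earlier results of these data known. Named genes are all members, of each related list the 2 called genes with the largest change, and the 10 highest and 5 lowest r. Other genes were named after their values were seen. Alternatives were quantile normalization, a floor at 5, centring on the array median, a pseudocount of 16, trend and robust moderation, leaving out probe sets whose mean lay under 6, the replicate number as a block, fits restricted to the compared groups, tumor type or inducer as covariate, another probe set per gene, and leaving out arrays.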

Additional observations from a re-analysis of the deposited data

Results flagged for a closer look

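Values far from the rest of their group were sought for the 35 genes and the module mean in sarcomatoid tumors (n = 5), MWCNT tumors (n = 8) and MWCNT B and C tumors (n = 5), which is 108 groups of values. Dixon's criterion picked 7 of them, and chance alone picks about 1 in 20. MWCNT D replicate 2, the tumor with T cell, B cell and pancreatic transcripts, accounted for 4. Its Lgals3 was 12.10, the lowest of the sarcomatoid tumors (next 13.37) and of the MWCNT tumors (next 13.04). Its Ccr1 was 7.58, the lowest of the sarcomatoid tumors (next 9.57). Its Coro1a was 13.08, the highest of the MWCNT tumors (next 10.41).

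MWCNT C replicate 3, a biphasic tumor, had the lowest values of the MWCNT tumors for Adgre1 (7.66, next 9.33) and Apoe (10.26, next 12.08). MWCNT C replicate 2 had the lowest Clec7a of the sarcomatoid tumors (8.11, next 9.05).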

How the results depend on the processing

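Between tumors and controls the count of genes called higher was 29 to 31 of 35 under every alternative run. The call of 3 single genes changed: Csf1 (called with another probe set), Mrc1 and Ccr2, as given above. Csf1 also turned sign, to -0.15 with centring and -0.015 with quantile normalization. With each array left out in turn, the count was 16 to 28 for MWCNT B and 15 to 29 for MWCNT C, lowest without MWCNT B replicate 1 and without control replicate 1, and 0 to 1 between sarcomatoid and epithelioid tumors (Ccr1 or Cd163, as given above). Fewer arrays were left in these fits; the cause was not tested further. Centring each array on its median gave 21 for amosite, 25 for MWCNT D, 18 for MWCNT C and 19 for MWCNT B, and quantile normalization gave 22, 26, 20 and 20 in the same order. Both also lowered the count of all probe sets called higher between tumors and controls, to 4801 and 5257, against 7618 with the signals as deposited.

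With the replicate number as a block the count was 30 for all tumors, 22 for MWCNT B and 19 for epithelioid tumors. No label says that the numbers pair the samples. Deviations of same-numbered arrays correlated at -0.29 to 0.39 over 26 pairs, with 6 pairs over 0.1, which cannot show whether they do. The module mean of the controls was 7.01 on the narrower list of 23 genes, by its construction from other genes. The first 3 places in the order of tumors were held by the same 3 tumors under quantile normalization and centring, where MWCNT C replicate 1 came first. Groups as small as 3 tumors limit what differences within tumors could be detected.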
